A study of Mus musculus with 9 samples.

Results

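The E2F family of transcription factors and their DP dimer partners comprised 10 genes, E2f1 to E2f8, Tfdp1 and Tfdp2, matched by gene symbol among the 55822 gene IDs of a count table from mouse extrahepatic bile ducts (EHBDs). All 10 were detected and were among the 21299 genes tested. Bulk RNA-Seq was performed on whole EHBDs of adult wild-type C57BL/6 mice, collected 24 hours after a sham laparotomy (n = 4, 2 males and 2 females) or after a laparotomy with ligation of the distal duct near the duodenum, termed bile duct ligation (BDL, n = 5, 2 males and 3 females). Both groups therefore underwent abdominal surgery, and no unoperated duct was included. The SMART-Seq mRNA kit was used for library preparation. As far as the labels show, each library came from 1 animal, so that p-values measured the spread between mice. The comparison asked which E2F classes changed in the obstructed duct.

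E2F proteins bind DNA at the promoters of genes needed to enter and complete S phase. E2f1, E2f2 and E2f3 are called activating because their proteins switch these genes on once phosphorylated RB releases them, whereas E2f4 and E2f5 recruit the RB relatives p107 and p130 and hold the same genes silent in resting cells. E2f6 represses without RB proteins, through a Polycomb complex termed PRC1.6, and the atypical factors E2f7 and E2f8 repress without a DP partner and are themselves made late in G1 and S phase. Tfdp1 and Tfdp2 encode the DP proteins that the other E2Fs need to bind DNA. Cholangiocytes, the epithelial cells of the duct, are largely at rest in the uninjured EHBD.

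Libraries held 24101163 to 27025227 counts after sham surgery and 23067967 to 29991945 after BDL. The groups differed in cell makeup. A list of 20 genes of pancreatic acinar cells held 16.0% to 39.0% of all counts after sham surgery and 0.0102% to 2.51% after BDL, and all 20 were lower after BDL. All 6 neutrophil markers were higher, with a summed level of 123 to 716 normalized counts in sham and 2426 to 24147 in BDL libraries. Of 10 biliary epithelial markers, 6 were higher and 1, Sox9, was lower, and their sum lay between 85699 and 130565 in sham and between 217227 and 372020 in BDL libraries, so the labelled tissue carried its defining markers in both groups. Fibroblast (2 of 6), lymphocyte (3 of 6), endothelial (2 of 4) and smooth muscle markers (1 of 4) were lower and none of those lists had a higher member, and 1 of 5 macrophage markers, Cd68, was higher. By the same test 19.9% of all tested genes were lower and 21.4% higher, so the smaller of these counts lie near those shares. All 8 markers of pancreatic islet cells were lower (median log2 fold change -4.28), and they summed to 9781 to 175168 normalized counts in sham and 204 to 13333 in BDL libraries. No marker was at 0 in all libraries. The part of these shifts in the E2F values below was not tested, and in bulk tissue fewer cells of a type and less RNA per cell cannot be told apart. Normalized counts are counts divided by DESeq2 size factors, which ranged from 0.434 to 1.17 in sham and from 1.22 to 1.63 in BDL libraries.

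At 24 hours after BDL, 8 of the 10 family members were higher, Tfdp2 was lower and E2f5 did not pass the test. Genes with an adjusted p under 0.05 are termed called, from edgeR's quasi-likelihood test with Benjamini-Hochberg adjustment over all 21299 tested genes. Of all tested genes 41.4% were called, 21.4% higher and 19.9% lower, so that changed genes were common in this comparison. For 8 members the lowest BDL library exceeded the highest sham library, which held for 19.2% of all tested genes. The median log2 fold change of the 10 members was 2.47, against -0.03 for all tested genes, whose percentiles 25 and 75 were -0.91 and 0.67. Among the E2Fs the size of the change followed the class. Log2 fold changes were 5.52 and 6.10 for the atypical, 2.86 to 3.66 for the activating and -0.28 to 1.22 for the repressing factors. The DP partners did not move as a class, at 2.09 for Tfdp1 and -0.53 for Tfdp2. The ranks of the 8 higher members among all genes varied. A larger log2 fold change was held by 0.624% of tested genes for E2f8, 3.94% for E2f1, 14.0% for E2f4 and 27.6% for E2f6. The E2f6 value of 0.58 lay between the percentiles 25 and 75 of all tested genes.

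**Figure D1:**
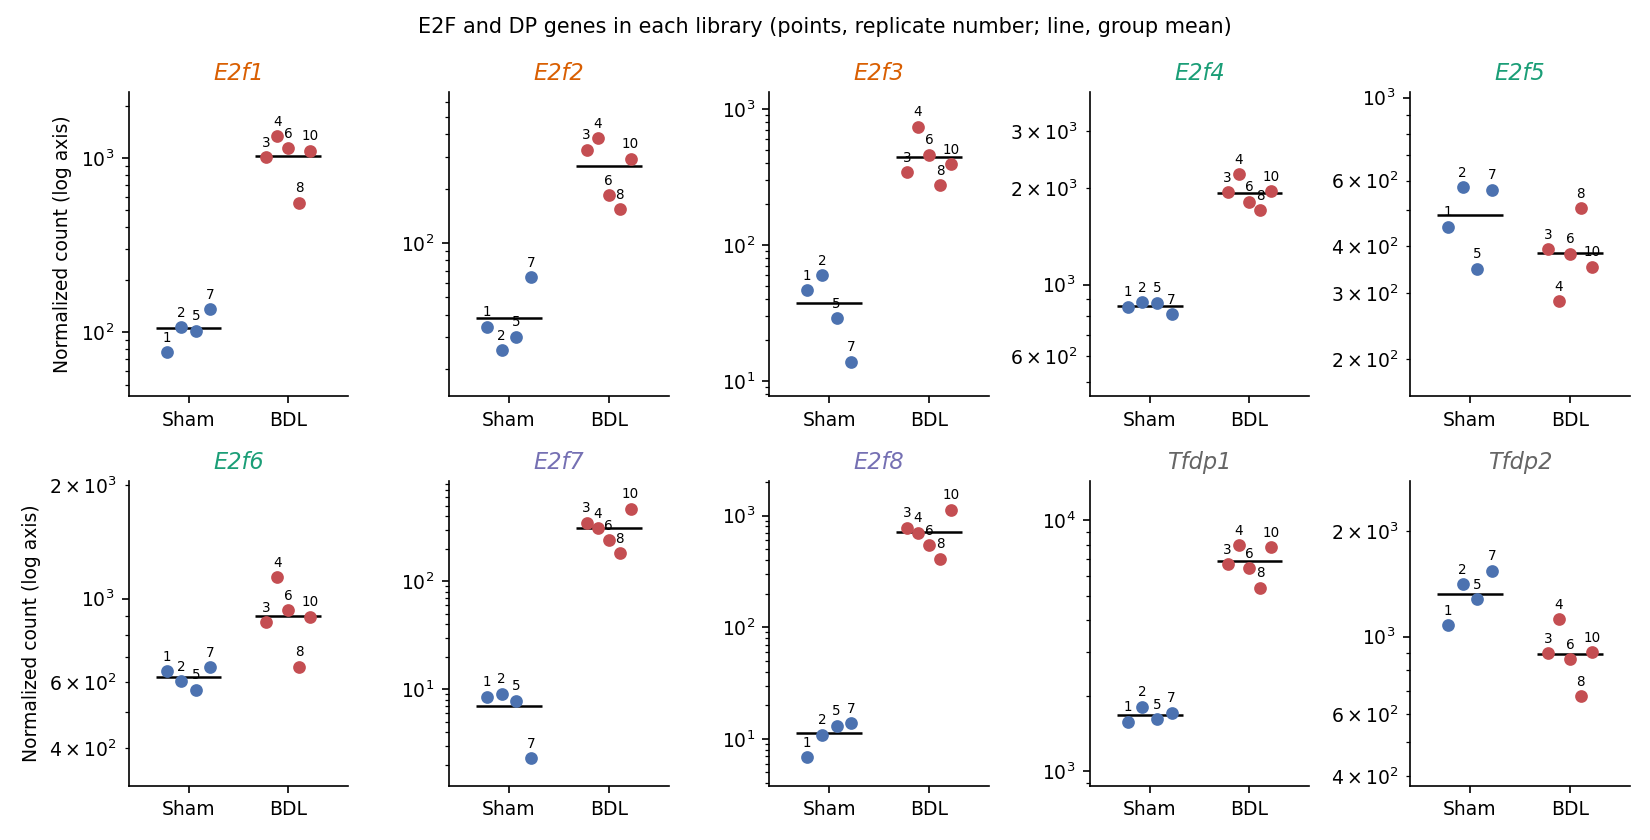
Normalized count of each family member (log axes, each panel with its own range) in the 4 sham and 5 BDL libraries, with the replicate number above each point and the group mean as a line. E2f7 and E2f8 moved from at most 13.8 to at least 183 normalized counts, E2f4 and Tfdp1 rose from an already high level, and the groups overlapped for E2f5 and Tfdp2 alone.

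The 5 members that changed most also held short sequences of the E2F type in their promoters, though no single word was present in all 5. Windows from 250 bases before to 50 bases after the start of the canonical transcript (GRCm39, Gencode vM39) were searched on both strands for 4 words of the E2F consensus, TTTCCCGC, TTTCGCGC, TTTGCCGC and TTTGGCGC. At least 1 word was present in E2f1, E2f2, E2f3, E2f7 and E2f8 and in none of E2f4, E2f5, E2f6, Tfdp1 and Tfdp2, while 2.82% of the 21770 protein-coding promoters of the same length and 14 of 44 promoters of E2F target genes of G1 and S phase (31.8%) held one. Stretches around the words are shown for 4 of these 5 promoters, as examples of letters that were not found in the other members, 5′ to 3′ on the strand of the gene and with the word in capitals, either as written above or as its reverse complement.
E2f1: tttcGCGGCAAAaaggaTTTGGCGCgtaaa
E2f2: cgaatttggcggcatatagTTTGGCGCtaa
E2f3: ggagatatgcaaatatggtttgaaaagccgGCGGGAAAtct
E2f7: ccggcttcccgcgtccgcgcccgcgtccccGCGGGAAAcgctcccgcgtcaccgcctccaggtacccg

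The E2f1 stretch lies on the minus strand at chr2:154411783-154411812 and covers bases 1 to 30 of the transcript, with a word on each strand. The E2f2 stretch lies at chr4:135899605-135899634 on the plus strand, bases 21 to 50 of the transcript. The other stretches lie before the start, at chr13:30170047-30170087 on the minus strand for E2f3 and chr10:110581072-110581139 on the plus strand for E2f7. Searches were also made for a pair of elements of cell cycle promoters that bind other factors. The CHR element TTTGAA, the site of the MuvB complexes, was found in E2f3 only among the members, against 17.1% of all promoters, and there it begins at base -23, ahead of the E2F word that begins at base -11, without overlapping it. The CCAAT box, bound by NF-Y, was found in the same 5 promoters as the E2F words and in no other member, so it separated the members equally. It was far more common, in 39.9% of all promoters and 24 of the 44 targets, and it overlapped no E2F word. A match describes the letters of a window and does not show that a factor bound there.

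The activating factors rose 7.26- to 12.6-fold, and for each of them all 5 BDL libraries lay above all 4 sham libraries. E2f1 (ENSMUSG00000027490, GRCm39 chromosome 2 from 154401326 to 154411812, minus strand), the best studied activator and the one tied to both S phase entry and apoptosis, stood at 77.0, 107, 102 and 136 normalized counts in sham replicates 1, 2, 5 and 7 and at 1007, 1329, 1142, 554 and 1103 in BDL replicates 3, 4, 6, 8 and 10. BDL replicate 8 was well below the other ligated ducts but far above the highest sham value. Sham EHBDs averaged 106 ± 24.2 (SD, 4 mice) and BDL EHBDs 1027 ± 289 (SD, 5 mice), and edgeR's quasi-likelihood test gave a log2 fold change of 3.34 with a standard error of 0.28 (10.1-fold, adjusted p = 3.48e-05).

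E2f2 (ENSMUSG00000018983, chromosome 4 from 135899585 to 135923368, plus strand), an activator best known from blood cells, was measured at 34.2, 25.4, 30.1 and 64.5 normalized counts in the sham libraries and 328, 381, 184, 153 and 293 in the BDL libraries, in the same order of replicates. Sham replicate 7 stood above the other sham libraries, and BDL replicates 6 and 8 below the other BDL libraries. Group means were 38.6 ± 17.7 (SD, 4 mice) and 268 ± 96.4 (SD, 5 mice), 7.26-fold higher by a log2 fold change of 2.86 and a standard error of 0.39 (edgeR, adjusted p = 0.000429). With the summed acinar level as a further term the log2 fold change was 2.83 and the call was lost (edgeR, adjusted p = 0.0611).

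E2f3 (ENSMUSG00000016477, chromosome 13 from 30090558 to 30170046, minus strand), whose gene makes a long and a short isoform that gene-level counts do not separate, was at 46.2, 59.9, 28.8 and 13.8 normalized counts after sham surgery and at 342, 739, 460.3, 275 and 391 after BDL. It was the most variable member among the activators, and the low sham value, in replicate 7, rested on 6 counts. Levels averaged 37.2 ± 20.1 (SD, 4 mice) and 441 ± 180 (SD, 5 mice). The log2 fold change was 3.66 with a standard error of 0.45 (12.6-fold, edgeR, adjusted p = 0.000239), and 2.25 with the acinar term (adjusted p = 0.0384).

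The repressing factors were the most abundant E2Fs of the sham duct per length of exon and changed the least of the 3 E2F classes. E2f4 (ENSMUSG00000014859, chromosome 8 from 106024243 to 106032003, plus strand), the main E2F of resting cells, was at 853, 881, 879 and 809 normalized counts in sham and 1941, 2208, 1813, 1704 and 1957 in BDL libraries. It had the smallest relative spread of the family in the sham group, and the groups were far apart. Averages were 856 ± 33.7 (SD, 4 mice) and 1925 ± 189 (SD, 5 mice), and the level rose 2.32-fold by a log2 fold change of 1.22, standard error 0.10 (edgeR, adjusted p = 3.55e-05).

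E2f5 (ENSMUSG00000027552, chromosome 3 from 14643676 to 14672404, plus strand), the other partner of p130, did not pass the test. Its values were 452, 575, 349 and 567 normalized counts in sham and 393, 286, 382, 506 and 352 in BDL libraries, so the groups overlapped, and BDL replicate 8, the lowest BDL library for every other member, was the highest here. The means were 486 ± 107 (SD, 4 mice) and 384 ± 80.0 (SD, 5 mice), and the log2 fold change was -0.28, standard error 0.21 (edgeR, adjusted p = 0.304). The end of E2f5 overlaps Rbis, a gene on the opposite strand, over 3134 bases. Rbis was higher after BDL (log2 fold change 0.89, edgeR, adjusted p = 0.000866), and since no source used here states that the counting used strand, E2f5 values may hold reads of Rbis.

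E2f6 (ENSMUSG00000057469, chromosome 12 from 16860874 to 16890766, plus strand), the Polycomb-associated repressor, was at 640.3, 604, 573 and 657 normalized counts in sham and 864, 1139, 932, 659.3 and 894 in BDL libraries. The groups were separated only by the gap between sham replicate 7 and BDL replicate 8. With means of 619 ± 37.7 (SD, 4 mice) and 898 ± 171 (SD, 5 mice), E2f6 rose 1.49-fold by a log2 fold change of 0.58, standard error 0.15 (edgeR, adjusted p = 0.0134). This call was lost with the acinar term (log2 fold change 0.09, adjusted p = 0.879) and when sham replicates 1 and 5 alone, those with the lowest acinar share, were set against BDL (0.60, adjusted p = 0.0703).

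The atypical factors were close to undetected in the sham duct and showed the largest changes of the family. E2f7 (ENSMUSG00000020185, chromosome 10 from 110581300 to 110623245, plus strand) had 8.56, 9.07, 7.86 and 2.31 normalized counts after sham surgery, from 22 counts over the 4 libraries together. After BDL it stood at 348, 311, 238, 183 and 468, and each ligated duct was far above the whole sham range. Means of 6.95 ± 3.14 (SD, 4 mice) and 310 ± 109 (SD, 5 mice) corresponded to a log2 fold change of 5.52 with a standard error of 0.33 (45.8-fold, edgeR, adjusted p = 7.25e-06). The log2 fold change was 4.91 with the acinar term (adjusted p = 0.000516).

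E2f8 (ENSMUSG00000046179, chromosome 7 from 48516176 to 48531452, minus strand), which acts together with E2f7 on shared targets and in the polyploidization of mouse hepatocytes, had 6.85, 10.9, 13.1 and 13.8 normalized counts in sham and 782, 702, 541, 410.3 and 1130.3 in BDL libraries. As for E2f7, BDL replicate 10 was the highest library and replicate 8 the lowest BDL library. Means were 11.2 ± 3.14 (SD, 4 mice) and 713 ± 274 (SD, 5 mice), a log2 fold change of 6.10 with a standard error of 0.37 (68.4-fold, edgeR, adjusted p = 7.36e-06), which placed E2f8 at rank 134 of 21299 tested genes. The sham value rests on 30 counts over the group, so the fold is known less well than the BDL level.

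The DP partners moved in opposite directions. Tfdp1 (ENSMUSG00000038482, chromosome 8 from 13388555 to 13428448, plus strand), which encodes DP1, was the most abundant member per length of exon in each library. It was at 1575, 1808, 1615 and 1708 normalized counts in sham and 6677, 7965, 6465, 5396 and 7840.1 in BDL libraries, with a gap between the groups wider than either range. The means were 1677 ± 104 (SD, 4 mice) and 6869 ± 1062 (SD, 5 mice), 4.25-fold higher by a log2 fold change of 2.09 with a standard error of 0.14 (edgeR, adjusted p = 1.19e-05).

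Tfdp2 (ENSMUSG00000032411, chromosome 9 from 96078150 to 96205699, plus strand), which encodes DP2, was at 1077, 1411, 1275 and 1539.9 normalized counts in sham and 895, 1121, 862, 676 and 903 in BDL libraries. BDL replicate 4 lay above sham replicate 1, so the groups overlapped. Over the sham libraries Tfdp2 was ordered as the acinar share, which was 16.0%, 35.7%, 29.3% and 39.0% of the counts in replicates 1, 2, 5 and 7. E2f1, which was higher after BDL, had the same order over the sham libraries. The part of the acinar share in either order was not tested. Averaging 1326 ± 198 (SD, 4 mice) in sham and 892 ± 158 (SD, 5 mice) in BDL libraries, Tfdp2 was lower by a log2 fold change of -0.53, standard error 0.15 (edgeR, adjusted p = 0.0208). The call was lost without sham replicate 2 (adjusted p = 0.0595), without sham replicate 7 (0.0711), with sham replicates 1 and 5 alone (log2 fold change -0.37, 0.173) and with the acinar term (-0.73, 0.230).

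**Figure D2:**
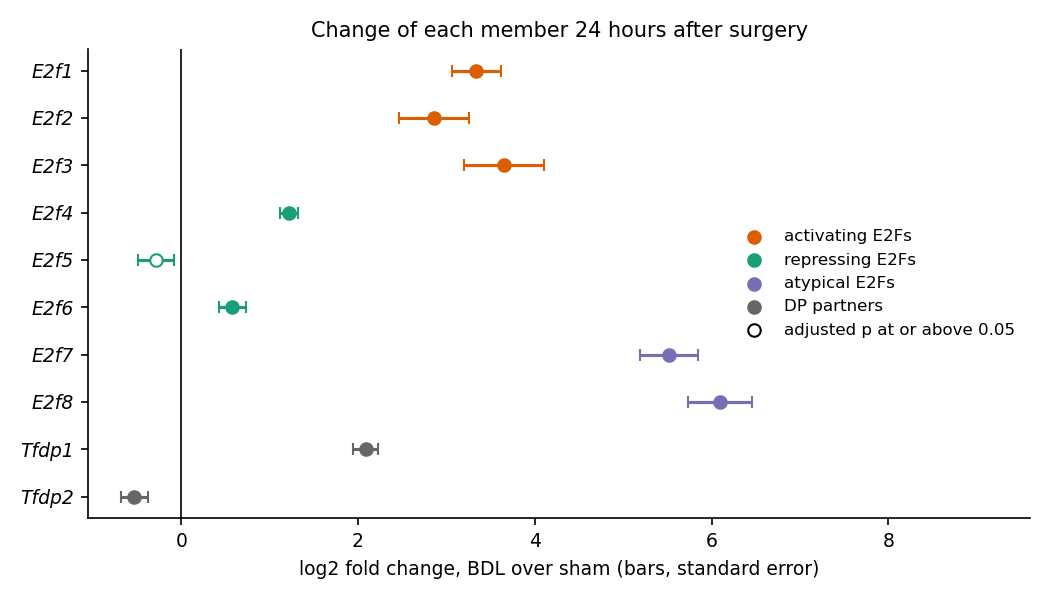
Log2 fold change of each member, BDL over sham, with the standard error as bars and colour by class. The atypical factors lie at 5.52 and 6.10, the activating factors between 2.86 and 3.66, and E2f5 (open symbol, adjusted p = 0.304) and Tfdp2 lie below 0.

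To compare genes with each other, normalized counts were divided by the merged exon length of each gene in kilobases. This length merges the exons of all annotated transcripts, such as 14964 bases for Tfdp2 and 11997 for E2f6. It need not be the length of the transcripts made in the duct, and no other length was tried. The order and the shares below depend on it. In the sham duct Tfdp1 was highest at 298 normalized counts per kilobase, followed by E2f4 at 148, E2f5 at 122, Tfdp2 at 88.6, E2f6 at 51.6 and E2f1 at 30.5. E2f2 (7.71), E2f3 (6.85), E2f8 (2.005) and E2f7 (0.771) came last. The ranges of E2f4 and E2f5, of E2f5 and Tfdp2, and of E2f2 and E2f3 overlapped, so the order within these pairs was not resolved. After BDL the order on this scale was Tfdp1 (1219), E2f4 (333), E2f1 (297), E2f8 (128), E2f5 (96.2), E2f3 (81.3), E2f6 (74.8), Tfdp2 (59.6), E2f2 (53.5) and E2f7 (34.4). Only Tfdp1 was then set apart from its neighbour without overlap. E2f1 thus came to a level whose range overlapped that of E2f4, and E2f8 moved from the last places to the middle of the family.

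The summed level of the 8 E2F genes averaged 369 ± 31.9 normalized counts per kilobase in sham (SD, 4 mice) and 1098 ± 186 in BDL libraries (SD, 5 mice), and its makeup differed between the groups. Repressing factors made up 85.4% to 88.8% of the sum in the sham libraries (mean 87.1%) and 41.6% to 58.7% in the BDL libraries (mean 46.8%). The activating share went from 10.6% to 13.9% (mean 12.2%) in sham to 29.7% to 45.7% (mean 38.6%) in BDL libraries, and the atypical share from a mean of 0.757% to 14.6%. None of these ranges overlapped. The repressing factors did not lose level in absolute terms, since their sum was 321 ± 26.5 normalized counts per kilobase in sham (SD, 4 mice) and 504 ± 27.6 in BDL libraries (SD, 5 mice). E2f4 alone accounted for a mean of 40.4% of the E2F sum in sham and 30.7% in BDL libraries, E2f5 for 32.7% and 9.27%. BDL replicate 8 kept the largest repressing share of the BDL libraries at 58.7%. For the partners, Tfdp1 made up 74.7% to 79.5% of both DP genes in sham and 94.97% to 95.8% in BDL libraries. These shares describe transcripts and not protein, and they combine genes whose own tests are given above. They also depend on the merged exon lengths.

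**Figure D3:**
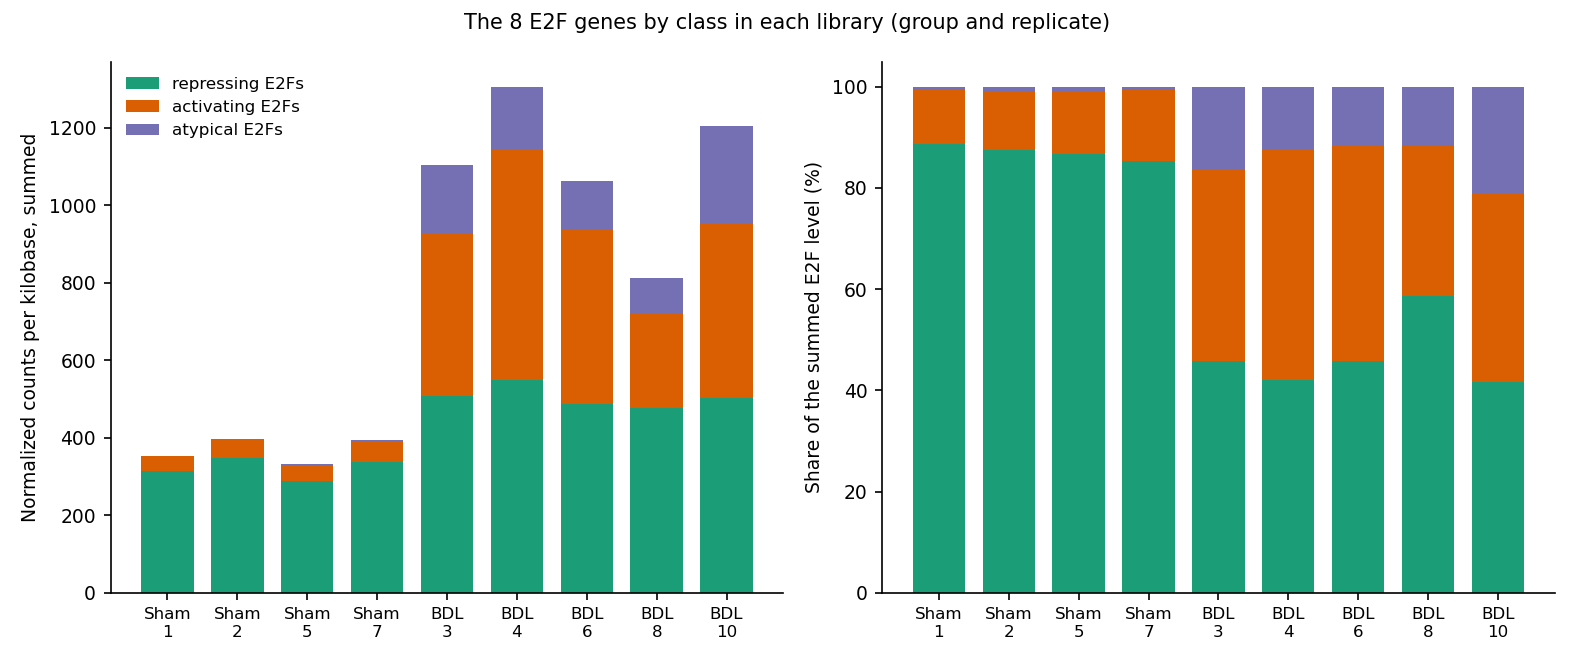
Summed level of the 8 E2F genes in normalized counts per kilobase (left) and the share of each class in percent (right) for each library. The total was between 332 and 397 in sham and between 812 and 1306 in BDL libraries, and the atypical share, under 1% in each sham library, was 11.6% to 21.1% after BDL.

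Ratios between members within a library, taken as log2 of normalized counts plus 0.5, were compared for 5 pairs by a two-sided exact permutation test over all ways to assign 4 and 5 libraries to the groups. Values were adjusted over the 5 pairs, and the smallest p that the test can give is 0.0159. The log2 ratio of E2f1 to E2f4 was -3.46, -3.04, -3.10 and -2.57 in sham and -0.95, -0.73, -0.67, -1.62 and -0.83 in BDL libraries, without overlap. It rose by 2.08 (exact permutation p = 0.0159, adjusted p = 0.0198), so the activator gained on the main repressor in each ligated duct. E2f3 gained on E2f4 by 2.50 (exact permutation p = 0.0159, adjusted p = 0.0198), with means of -4.70 ± 0.87 (SD, 4 mice) and -2.20 ± 0.43 (SD, 5 mice).

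The atypical E2f8 in turn gained on the activating E2f1. Its log2 ratio to E2f1 was -3.40, -3.24, -2.92 and -3.25 in sham and -0.37, -0.92, -1.08, -0.43 and 0.04 in BDL libraries, a difference of 2.65 (exact permutation p = 0.0159, adjusted p = 0.0198). In BDL replicate 10 E2f8 stood at 1130.3 and E2f1 at 1103 normalized counts. Within the atypical pair the log2 ratio of E2f7 to E2f8 was 0.30, -0.25, -0.70 and -2.35 in sham, where both rest on 10 counts or fewer per library, and -1.17, -1.17, -1.18, -1.16 and -1.27 in BDL libraries. The difference of -0.44 did not pass the test (exact permutation p = 0.413, adjusted p = 0.413), but without sham replicate 7 it was -0.97 (exact permutation p = 0.0357). Its spread among the BDL libraries was small, with an SD of 0.0455 over the 5 mice, while E2f7 varied from 183 to 468 and E2f8 from 410.3 to 1130.3 normalized counts between them. The Tfdp1 to Tfdp2 ratio was 0.55, 0.36, 0.34 and 0.15 in sham and 2.90, 2.83, 2.91, 2.996 and 3.12 in BDL libraries, higher by 2.60 (exact permutation p = 0.0159, adjusted p = 0.0198).

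**Figure D4:**
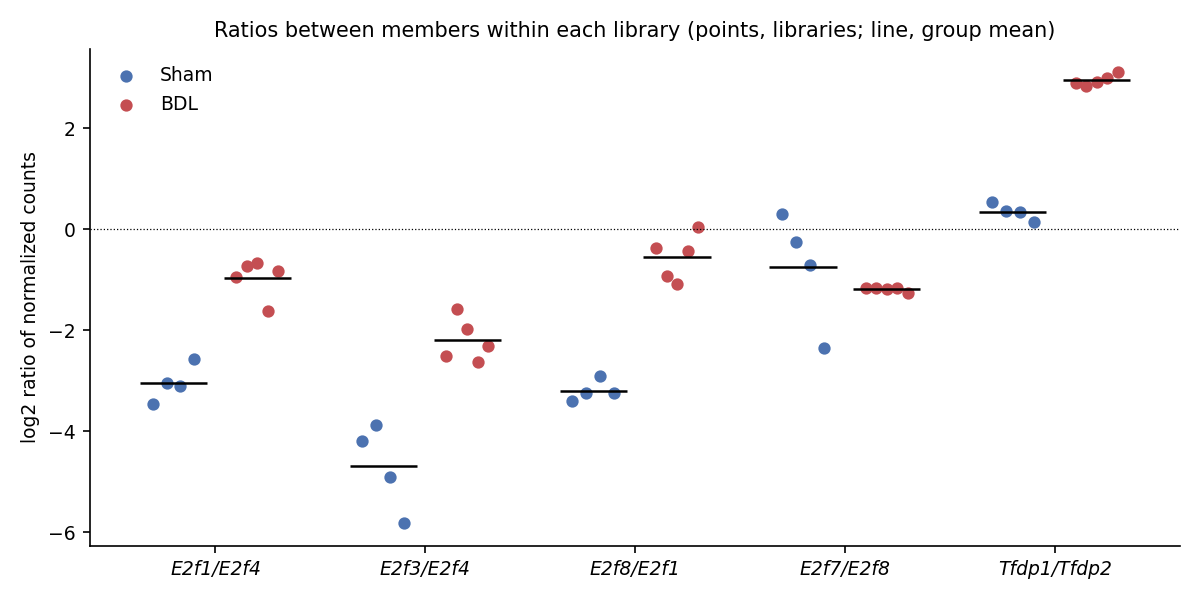
Log2 ratio of normalized counts for 5 pairs of members, with a point for each library (4 sham, 5 BDL) and the group mean as a line. Groups are separated for each pair but E2f7 to E2f8, whose 5 BDL values lie between -1.27 and -1.16 and whose sham values spread from -2.35 to 0.30.

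Within the BDL group the members varied together. BDL replicate 8 was the lowest BDL library for 9 of the 10 members, E2f5 being the exception, and for 41 of the 44 E2F target genes, compared with 22.0% of all tested genes and 49.5% of the genes called higher. Replicate 4 was the highest for 7 of the 10 members and 34 of the 44 targets, compared with 28.3% of all tested genes and 54.3% of the genes called higher. This pattern was noticed after the values were seen. The marker of cycling cells Mki67, which was higher after BDL (log2 fold change 6.94, edgeR, adjusted p = 0.000122), had another order. It stood at 2191, 1016, 728, 3418 and 3066 normalized counts in BDL replicates 3, 4, 6, 8 and 10, and was highest in the library where 9 of the members were lowest. Ccna2, the cyclin of S and G2 phase, ordered the BDL libraries as Mki67 did, with 6707 in replicate 8 and 2296 in replicate 4. Without BDL replicate 8 the same 8 members were called higher and the median log2 fold change of the family was 2.59.

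No member responded differently in males and females by the test of the interaction. edgeR called 0 of 21299 genes for a sex by surgery interaction, with 544 genes (2.55%) at an unadjusted p under 0.05, and DESeq2 called 5, none of them a member. E2f8 had an interaction log2 of 1.46 (unadjusted p = 0.0257, edgeR adjusted p = 0.9999), with means of 8.86 and 956 normalized counts in sham and BDL males and 13.5 and 551 in females. E2f3 had an interaction log2 of -1.66 (unadjusted p = 0.0362, edgeR adjusted p = 0.9999), with 53.0 and 367 in males and 21.3 and 491 in females. With 2 or 3 mice per sex and surgery, only large differences between the sexes were detectable.

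Genes around the family were described from lists of its regulators and targets. Of all tested genes 21.4% were called higher and 19.9% lower, and the counts in each list below are to be read against these shares. The pocket proteins, which the E2Fs bind, moved apart. Rbl1, which encodes p107, rose, with means of 206 ± 31.4 (SD, 4 mice) and 1439 ± 220 (SD, 5 mice) normalized counts (log2 fold change 2.86, edgeR, adjusted p = 7.25e-06), while Rbl2, which encodes the p130 of resting cells, fell (1638 ± 119 and 623 ± 123, log2 fold change -1.36, adjusted p = 0.000131) and Rb1 had a log2 fold change of -0.02 (adjusted p = 0.922). The Rbl2 call was lost with the acinar term (-0.96, adjusted p = 0.0734). Rbl1 and Rbl2 did not overlap between the groups. Every BDL library was above every sham library for Rbl1, as for 19.2% of all tested genes. The share for the opposite direction, that of Rbl2, is not given here.

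Of 7 genes of the MuvB core, B-Myb and FoxM1, 5 rose and 1 fell. Mybl2 (log2 fold change 6.90), the gene of B-Myb, and Foxm1 (5.78), a factor of G2 genes, changed more than the activating E2Fs, and Lin54 (1.83) and Rbbp4 (0.81) of the core changed less. Lin52 fell (-0.42, edgeR, adjusted p = 0.0293), a call lost without sham replicate 1, 2 or 5 or BDL replicate 3 or 10 (adjusted p between 0.0502 and 0.0966). Lin37 (-0.41, adjusted p = 0.0850) did not pass the test, but did so without BDL replicate 8 (edgeR, adjusted p = 0.0447), with DESeq2 (adjusted p = 0.0394), with upper-quartile scaling (0.0283) and with another filter on low counts (0.0485). With the acinar term 3 of the 7 genes were called higher and none lower, and the Rbbp4 call was lost (log2 fold change 0.66, edgeR, adjusted p = 0.0901).

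Upstream of RB, 7 of 8 G1 cyclins and kinases rose and none fell. The E-type cyclins changed most, Ccne1 by 6.61 and Ccne2 by 4.17 on the log2 scale, ahead of their kinase Cdk2 (2.28) and of Cdk4 (1.39), the kinase of D-type cyclins. Ccnd2 had a log2 fold change of -0.40 (edgeR, adjusted p = 0.212). With the acinar term 4 of the 8 were higher and 1 lower. Of 6 tested CDK inhibitors 1 rose and 2 fell. In so short a list these counts lie near the shares of all tested genes, 21.4% higher and 19.9% lower. Cdkn1c, which encodes p57, fell, with 432 ± 131 normalized counts in sham (SD, 4 mice) and 89.4 ± 12.4 in BDL libraries (SD, 5 mice, log2 fold change -2.22, edgeR, adjusted p = 0.000101). Cdkn2d rose (1.44, adjusted p = 0.00899), and Cdkn1b, which encodes p27, fell (-0.75, adjusted p = 0.0331), a call lost without any 1 of sham replicates 1, 2, 5 and 7 or BDL replicates 3, 6 and 10 (adjusted p between 0.0536 and 0.0911). Cdkn1a, which encodes p21, had a log2 fold change of 0.97 (edgeR, adjusted p = 0.0853) and passed without BDL replicate 10 (0.0184), in DESeq2 (adjusted p = 0.0436) and when low counts were not filtered in edgeR (0.0257). With sham replicates 1 and 5 alone the Cdkn2d call was lost (log2 fold change 1.25, edgeR, adjusted p = 0.0911), and of the inhibitors none was called higher and 1 lower. Cdkn2a had 0 counts in each library and was not tested.

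Of 6 genes whose products control E2F proteins or their degradation, 5 rose and none fell. The largest were Ccna2 (log2 fold change 6.98), whose kinase complex turns off E2F1 binding, and Ccnf (5.93), a ubiquitin ligase subunit that targets E2Fs in late cycle. Fbxo5 (3.52), an inhibitor of the anaphase-promoting complex, and Skp2 (2.52), a ligase subunit that binds E2F1, rose as well. Fzr1 (0.66, edgeR, adjusted p = 0.0192) lost its call without sham replicate 1 or 5 (adjusted p between 0.0528 and 0.0657), and Mdm2 (0.19, adjusted p = 0.277) passed without sham replicate 7 (0.0430).

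All 44 E2F target genes of G1 and S phase rose, with log2 fold changes of 0.71 to 7.41 and a median of 3.60, and 43 of them did not overlap between the groups. Of all tested genes 21.4% were called higher, and for 19.2% every BDL library was above every sham library. Among the smallest p were Rrm1 (3.39), a subunit of ribonucleotide reductase, Tyms (3.02), the thymidylate synthase gene, Uhrf1 (6.41), a partner of DNA methyltransferase at the fork, and Gmnn (3.37), the licensing inhibitor geminin (edgeR, adjusted p between 5.16e-06 and 7.25e-06). Mean levels of Rrm1 were 634 ± 44.7 (SD, 4 mice) and 6375 ± 1179 (SD, 5 mice) normalized counts. Cdc25a, a phosphatase that activates CDK2, changed least (0.71, edgeR, adjusted p = 0.0222), overlapped between the groups and lost its call without sham replicate 5 (0.0752). With the acinar term 37 of the 44 were called higher and none lower, and with sham replicates 1 and 5 alone 43.

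**Figure D5:**
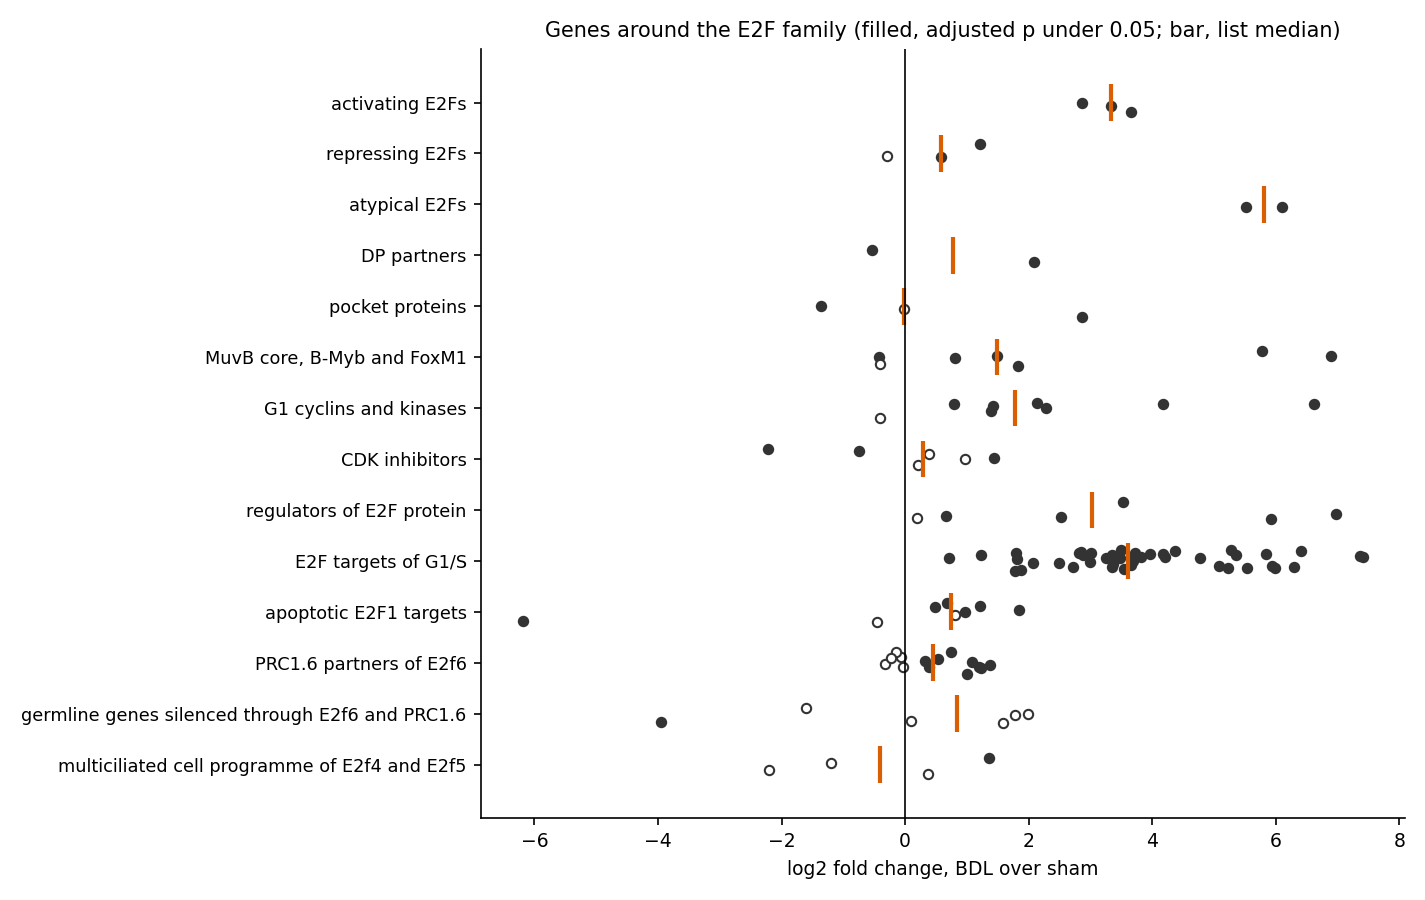
Log2 fold change, BDL over sham, of each gene in lists around the E2F family (filled, adjusted p under 0.05; open, not called; bar, list median). The G1 and S phase targets all lie to the right of 0 with a median of 3.60, while pocket proteins and CDK inhibitors lie on both sides.

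Lists tied to single members had smaller median changes than the G1 and S phase targets, though single genes in them changed more. Of 8 tested apoptotic targets of E2F1, 5 rose, among them Casp8 (log2 fold change 1.21), an initiator caspase, and Apaf1 (0.68), the apoptosome scaffold. One of the 5, Bcl2l11 (0.48), lost its call without sham replicate 2, 5 or 7 or BDL replicate 3, 6 or 8 (edgeR, adjusted p between 0.0501 and 0.123). Hrk, which encodes a BH3-only protein, fell (edgeR, adjusted p = 0.0204). It had 24 counts over the sham group and 0 in the BDL group, at least 22.7-fold lower when 3 counts are taken as the limit for the BDL group, and its call was lost without sham replicate 5 (adjusted p = 0.0692) and with the acinar term (0.761). Sham replicate 2 held 15 of the 24 counts of Hrk, and without it Hrk was at least 9.20-fold lower on the same scale. Pmaip1, a further gene of the list, did not pass but did so without sham replicate 1 (0.00274). Of 14 partners of E2f6 in PRC1.6, 9 rose and none fell. Their median log2 fold change was 0.46, with the smallest p for Cbx3 (1.23), Hdac1 (1.003), Wdr5 (1.19) and Hdac2 (0.74), and 2 of the 14 were called with the acinar term. Leaving out 1 library gave 7 to 9 of the 14 higher and 0 or 1 lower, and upper-quartile scaling gave 7 higher and 1 lower. Of 6 tested germline genes that E2f6 and PRC1.6 silence in somatic cells, none rose and Sycp3 fell (-3.95, edgeR, adjusted p = 0.00589), a call lost with the acinar term (-2.07, adjusted p = 0.481). Without sham replicate 5, 1 of the 6 was called higher. Of 4 tested genes of the multiciliated cell programme, which E2f4 and E2f5 drive in airway cells, Myb rose (1.37, edgeR, adjusted p = 0.0381), a call lost without sham replicate 5 or 7 or BDL replicate 3, 4, 8 or 10 (adjusted p between 0.0502 and 0.117), and with the acinar term none of the 4 was called. The single calls in the germline and multiciliated lists lie near the shares of all tested genes, 19.9% lower and 21.4% higher. Foxj1, the ciliogenesis factor, had a log2 fold change of -2.20 (adjusted p = 0.0573) and passed without BDL replicate 6 (0.00130) and under 4 of the other settings (edgeR, adjusted p between 0.0170 and 0.0483).

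The genes whose levels over the 9 libraries were most like those of a member were found by Pearson's correlation of log2(normalized count + 1) over 11764 genes with a mean of at least 100 normalized counts. For E2f1 these were Gins1 (r = 0.999), a subunit of the replicative helicase, Memo1, Prmt1, Nhp2 and Naa50. Sf3a3 (r = 0.998), a splicing factor, Dtymk, Exosc9, Nasp and Tpm3 were the nearest to E2f4. For E2f8 they were Vrk1 (r = 0.999), a kinase of chromatin proteins, Mre11a, Ttf2, Tnfaip1 and Eri1. A correlation of 0.95 or more was reached by 1356, 1319 and 1163 genes for E2f1, E2f4 and E2f8. All libraries share the contrast of surgery, size factor and acinar share, so such values were common and do not single out these genes.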

How the data were processed

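Bulk RNA-Seq of whole EHBDs was analysed from 1 deposited table of estimated counts per gene. The authors quantified reads with Salmon against the Gencode vM33 transcriptome of GRCm39 and summed transcripts to genes with tximeta, and the deposited estimated counts are whole numbers, not normalized. Of 55822 gene IDs, 27728 were at 0 in every library and 55261 were named from Gencode vM39. Groups came from the sample labels and sex, entered in each fit as a term as in the study's own model, from the deposited sample sheet, whose other entries were not used. Library depth and its range are given in the report.

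Genes whose counts reached 10 in all libraries together were tested with edgeR 4.0.16 (R 4.3.3, TMM scaling, quasi-likelihood F test, Benjamini-Hochberg adjustment, threshold 0.05), checked beforehand on simulated data. Fold changes, standard errors and adjusted p without another test named come from this fit. Normalized counts used DESeq2 1.42.0 size factors. Ratios had a pseudocount of 0.5 and an exact permutation test (scipy 1.17.1). Alternatives tried were another tool (DESeq2), RLE and upper-quartile factors, scaling to genes under 0.5% of the counts, other filters, no sex term, the acinar level as a term, sham replicates 1 and 5 only, other pseudocounts and each library left out. Named were all members, Mki67, up to 4 genes of smallest p in each list (some genes and sequences are not reported here), those called against the direction of their list, and the 5 genes most like E2f1, E2f4 and E2f8. Ccnd2, Lin37, Fzr1, Mdm2, Cdc25a, Bcl2l11, Pmaip1 and Rbis were added outside this rule after their values were seen. The members and lists were chosen with earlier results of these data known.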

Additional observations from a re-analysis of the deposited data

Results flagged for a closer look

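Of 30 groups of member levels and ratios examined for a library far from the others of its group, 1 stood out, and chance alone marks about 1 group in 20. It was the log2 ratio of E2f7 to E2f8 in BDL replicate 10, which was -1.27, while the other 4 BDL libraries lay between -1.18 and -1.16. The gap was 0.845 of the whole BDL range. Both genes were at their highest level in this library, at 468 and 1130.3 normalized counts.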

How the results depend on the processing

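Over the 67 genes named by the rule and 18 alternatives, 43 of 1198 values lost a call, 8 gained one and none reversed. Genes added outside the rule, such as Bcl2l11, Fzr1, Cdc25a and Lin37, are not in these counts and also lost or gained calls. With the acinar level as a term, which separates the groups as surgery does, 1359 genes were called in place of 8810 (1035 higher and 324 lower), and 14 of the 43 losses arose there. The acinar share and surgery cannot be told apart by this design. Of the members, E2f1, E2f3, E2f4, E2f7, E2f8 and Tfdp1 kept their calls under all 18 alternatives, and the losses of E2f2, E2f6 and Tfdp2 are given above. The E2f5 log2 fold change, never called, was 0.22 with the acinar term. Leaving out 1 library gave 7176 to 8746 calls and moved the difference in the E2f7 to E2f8 log2 ratio from -0.44 to values of -0.97 to -0.089, past the threshold only without sham replicate 7, and DESeq2 called 9722 genes and 5 genes for the sex interaction. The cause of these differences was not tested. Upper-quartile scaling shifted the median log2 fold change of all genes from -0.03 to -0.18 and lowered the share of calls that were higher, from 4565 of 8810 to 3712 of 8839, with no change in a member's call. Depth limits E2f7 and E2f8 in sham libraries, which rest on 1 to 10 counts each. No paired analysis was made, since the labels name no pairs. The paper reports littermate controls where possible, but which mice were littermates is not stated.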
